A study of Mus musculus with 6 samples.

Results

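Captured, methylated DNA was described here at the far ends of the mouse autosomes, in the last 3 Mb before the largest coordinate that the table gives for each of chromosomes 1 to 19. Of 68327 gene-named regions on these autosomes, 2041 started inside such a window and carried 622 gene names. The 2041 regions were set against the other 66286 gene-named regions of the same chromosomes. A region is an interval of the deposited table, and it counts as gene-named where the table assigns at least 1 gene to it. Membership used the position and the gene name only, and not the change between the ages. Every region of the table had a mean count of at least 10.0, so reads may have decided which regions were listed. The effect of this on the changes below was not tested. Of the 2041 distal regions, 219 (10.7%) were assigned to more than 1 gene and were counted once.

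The samples were 3 libraries from P14 and 3 from P1 hearts, that is, from postnatal days 14 and 1. All came from male C57BL/6 mice, untreated and without a named allele. The tissue is labelled left ventricle, while the protocol describes ventricles with an intact septum after removal of the atria. The series compares how DNA methylation differs between these ages, and its design text calls the libraries biological replicates. Sheared DNA was captured on a methyl-CpG binding domain protein (MBD-seq), so a read count rises with both the methylation and the number of CpG sites in a fragment and gives no level per site. In whole tissue, a change in the mix of cell types and a change within cells cannot be told apart, and the table holds no expression values against which the tissue label could be checked.

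Methylation of the cytosine in a CpG pair is copied at cell division and, at promoters rich in CpG, usually accompanies silence of the gene. Mouse chromosomes carry their centromere close to one end, so the highest coordinates lie towards the opposite telomere, and in mammals the subtelomeric DNA of many chromosomes is rich in genes and in GC. The end of mouse chromosome 7 also carries a large imprinted domain, in which genes are read from only the maternal or only the paternal copy under the control of methylated DNA elements near H19 and Kcnq1ot1.

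Only 78 of 2038 distal regions overlapped a promoter window (250 bases before to 50 after a gene start), and at some of them the region enclosed all of the bases before the start. A selection of these upstream sequences is shown because they differ widely in CpG content, which the capture depends on. They were chosen after the values were known, come from RefSeq (GRCm38.p6), and are written 5′ to 3′ with each CpG in capitals.
Kcnq1ot1, the antisense RNA of the imprinted Kcnq1 domain, chr7:143296548-143296797, minus strand: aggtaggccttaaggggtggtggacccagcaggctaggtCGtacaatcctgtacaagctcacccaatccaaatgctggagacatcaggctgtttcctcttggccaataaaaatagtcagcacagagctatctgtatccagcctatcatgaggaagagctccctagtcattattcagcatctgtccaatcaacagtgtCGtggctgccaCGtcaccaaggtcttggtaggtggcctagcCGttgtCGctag
Th, encoding tyrosine hydroxylase, chr7:142899996-142900245, minus strand: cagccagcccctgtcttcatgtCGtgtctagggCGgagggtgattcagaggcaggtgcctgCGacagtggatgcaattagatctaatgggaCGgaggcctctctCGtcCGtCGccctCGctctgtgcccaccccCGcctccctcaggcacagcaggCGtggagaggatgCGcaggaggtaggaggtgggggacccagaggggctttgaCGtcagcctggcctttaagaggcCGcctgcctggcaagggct
Fscn2, encoding an actin-bundling protein of the retina and inner ear, chr11:120361284-120361533, plus strand: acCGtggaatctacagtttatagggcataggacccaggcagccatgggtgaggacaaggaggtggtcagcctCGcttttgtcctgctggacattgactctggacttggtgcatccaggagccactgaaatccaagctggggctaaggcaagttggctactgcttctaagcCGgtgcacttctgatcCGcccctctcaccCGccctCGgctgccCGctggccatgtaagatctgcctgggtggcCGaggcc
Abhd16b, a member of the abhydrolase domain family, chr2:181492956-181493205, plus strand: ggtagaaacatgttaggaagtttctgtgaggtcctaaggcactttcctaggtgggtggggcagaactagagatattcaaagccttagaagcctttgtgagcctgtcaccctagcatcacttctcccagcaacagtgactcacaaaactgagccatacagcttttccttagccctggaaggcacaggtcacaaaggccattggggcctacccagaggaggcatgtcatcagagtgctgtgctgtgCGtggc
Krt7, encoding a keratin of simple epithelia, chr15:101412153-101412402, plus strand: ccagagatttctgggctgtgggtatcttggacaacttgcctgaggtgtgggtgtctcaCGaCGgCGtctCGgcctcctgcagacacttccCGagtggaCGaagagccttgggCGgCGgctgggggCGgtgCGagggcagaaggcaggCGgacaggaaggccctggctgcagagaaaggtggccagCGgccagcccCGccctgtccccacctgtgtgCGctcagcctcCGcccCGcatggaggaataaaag
The Krt7 sequence held 16 CpG and that of Th 13, against 8 at Fscn2, 5 at Kcnq1ot1 and 1 at Abhd16b. Over 32841 RefSeq promoters, the 250 bases before the start held a median of 6 CpG, and 25.4% held at least as many as Krt7 while 92.1% held at least as many as Abhd16b.

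The libraries differed in how much of their DNA fell in gene-named regions, and this bears on every direction given below. Totals over all distinct regions ran from 16284216 to 21512072 reads per library. Gene-named regions took 24.003%, 12.961% and 11.237% of the reads of P14 replicates 1, 2 and 3, against 7.584%, 8.775% and 8.21% in P1 replicates 1, 2 and 3. The distal regions held 171705, 78878 and 54702 reads at P14, against 41769, 45334 and 44064 at P1. The median distal region rested on 59, 28 and 21 reads at P14 and on 15, 17 and 16 reads at P1. P14 replicate 1 stood apart with the largest share, and 47 distal regions had no read in P1 replicate 1, against at most 1 in any other library.

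The ends differed greatly from each other in how many captured regions they held. Chromosome 11 carried 378 distal regions, chromosome 4 carried 327, chromosome 2 carried 206 and chromosome 7 carried 176, so that these 4 ends held 1087 (53.3%) of the 2041. On chromosome 11 this was 126.0 regions per Mb in the distal window against 44.14 per Mb in the remainder, and on chromosome 4 it was 109.0 against 32.32. At the other extreme, chromosome 18 held 3 distal regions and chromosome 3 held 4, while chromosome 17 held 0 in the window against 38.34 per Mb elsewhere. The window was denser than the remainder on 9 chromosomes and sparser on 10.

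Pooled over the 19 autosomes, the distal windows held 35.81 gene-named regions per Mb against 27.55 in the remainder. They also held more protein-coding genes, 12.35 per Mb against 8.3 per Mb in the RefSeq annotation. Per protein-coding gene the order turned round, with 2.9 regions in the distal windows and 3.32 elsewhere. Across the 19 ends, regions per Mb and protein-coding genes per Mb had a Pearson r of 0.674 and a Spearman rho of 0.795, given as a description of ends that share the same 6 libraries and the same region calling.

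**Figure D1:**
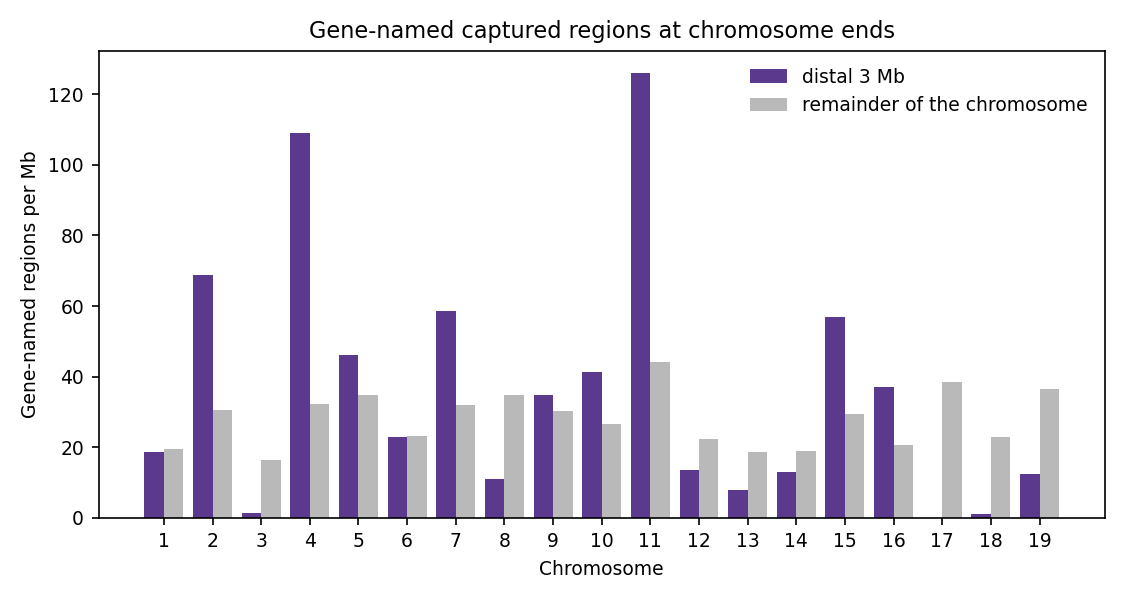
Gene-named regions per Mb (y axis) on each autosome (x axis), in the distal 3 Mb (purple) and in the remainder of the same chromosome (grey). Chromosomes 11 and 4 reach 126.0 and 109.0 regions per Mb at their ends, and chromosome 17 has no distal region.

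The distal regions were close to the remaining ones in median width and in the share inside genes. Their median width was 887 bp (quartiles 706 and 1306 bp), against 885 bp elsewhere. The longest distal region, 14787 bp, was assigned to Fasn, which encodes fatty acid synthase. Of the distal regions, 93.2% lay in the span of their assigned gene, against 93.6% of the others. Overlap with a promoter window was 3.83% (78 of 2038) at the ends and 2.52% (1618 of 64281) elsewhere, without chromosome 18, for which no promoters were used here. These shares were not tested.

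Captured regions of a single gene often ran in series along its span. Cdh4, encoding the adhesion protein R-cadherin, had 62 distal regions, Prdm16, a transcriptional regulator of brown fat and heart development, had 56, and Rptor, a subunit of the growth-controlling kinase complex of mTOR, had 45. Megf6, an EGF-repeat protein, had 36, while Kcnq1, a potassium channel of cardiac repolarisation, and Shank2, a scaffold of excitatory synapses, had 31 each. The 44 genes with 10 or more regions held 829 of the distal regions, and 246 genes had 1. Members are therefore not independent, since neighbours share a gene and a stretch of DNA.

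Read density at the ends, relative to the remainder, was compared over libraries. Distal regions held 1.087, 0.99 and 0.973 times the reads per kb of the other regions in P14 replicates 1, 2 and 3, against 0.968, 0.959 and 0.964 in P1 replicates 1, 2 and 3. All 3 P14 libraries lay above all 3 P1 libraries, and P14 replicate 1 lay farthest from the others. The mean ratio was 1.016 ± 0.061 at P14 and 0.964 ± 0.005 at P1 (SD, n = 3 each). The difference of the log2 ratios was 0.075, with an exact two-sided permutation p = 0.1, the smallest that 3 libraries against 3 can give. Without P14 replicate 1 the difference was 0.026.

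The distal share of all reads in gene-named regions is the same comparison on another scale. It was 3.336%, 3.047% and 2.997% in P14 replicates 1, 2 and 3, against 2.983%, 2.954% and 2.972% in P1 replicates 1, 2 and 3. The means were 3.127 ± 0.183% at P14 and 2.97 ± 0.015% at P1 (SD, n = 3 each), a difference of 0.157 percentage points with an exact permutation p = 0.1. It was 0.052 points without P14 replicate 1. Over all 6 libraries together, distal and remaining densities differed by a log2 ratio of -0.016 (exact two-sided sign-flip p = 0.6562).

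**Figure D2:**
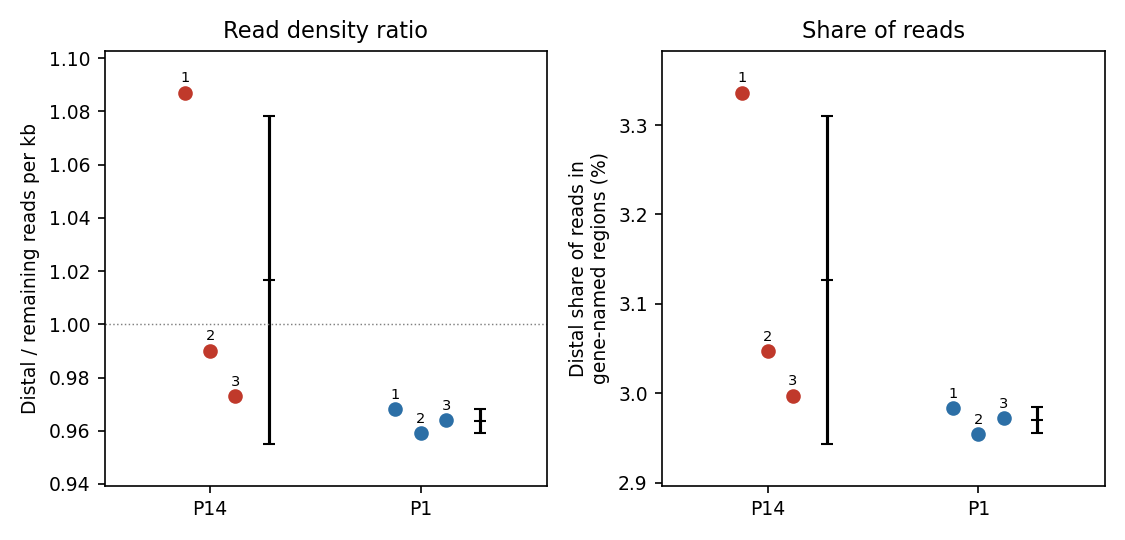
Per library (numbered points), the ratio of reads per kb in distal regions to that in the other gene-named regions (left) and the distal share of reads in gene-named regions in percent (right), at P14 and P1. Bars give mean ± SD, n = 3. The P14 ratios of 1.087, 0.99 and 0.973 all lie above the P1 ratios, and replicate 1 sets most of the P14 spread. The y axes do not start at 0.

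Single regions were compared on their counts in edgeR (quasi-likelihood F test), scaled among gene-named regions, with Benjamini-Hochberg adjustment over all 61355 gene-named regions tested and a threshold of 0.05. A log2 change is P14 over P1. Of the 2041 distal regions, 1807 passed the filter on low counts and 234 did not. The filter kept a region only where at least 3 libraries reached a minimum scaled count. A region under it in every library of 1 age was tested only where every library of the other age reached it. At such regions the filter fixed in advance that the ages did not overlap. Of the 1807, 7 (0.387%) were higher at P14, where 0.2% of all tested regions were, and 24 (1.33%) were lower, where 2.21% of all tested regions were. In either direction 31 (1.72%) passed, against 2.41% of all tested regions. At an unadjusted p under 0.05 there were 122 (6.75%), against 7.84%. The median log2 change of the distal regions was 0.045, with quartiles of -0.161 and 0.299, and that of the 59348 others was -0.001. Of the tested distal regions 56.4% had a positive change, against 49.9% of the others. The medians lay closer together without P14 replicate 1, at 0.022 over the distal and 0.012 over all gene-named regions. With all libraries these were 0.045 and 0.001.

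All 31 regions that passed lay within the span of their assigned gene, and none overlapped a promoter window. In all 31 the P14 and P1 libraries did not overlap in CPM (counts scaled to the reads in gene-named regions, with TMM factors). A small p selects for this, and the filter fixed it at regions low in every library of 1 age. The adjusted p of the 31 in edgeR ran from 0.0175 to 0.04842. None passed when P14 replicate 1 was left out, where log2 changes ran from 0.56 to 2.02 for the 7 higher and from -2.36 to -1.18 for the 24 lower regions. In a fit over all 209063 tested regions of the table, which sets the scale mostly by DNA outside gene-named regions, 0 were called (0%). At an unadjusted p under 0.05 that fit held 719 of 1961 distal regions (36.7%), 683 of them higher at P14, against 33.2% of the other gene-named autosomal regions and 23% of all regions. Without P14 replicate 1, 13 distal regions were higher and 0 lower in that fit, where 0.122% of all regions were higher and 0.847% lower.

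The values shifted upward as a whole on another scale. Scaled to the reads in regions without a gene name, the median log2 change was 0.945 over all gene-named regions and 1.001 over the distal ones. On that scale 209 distal regions were higher and 2 lower, where 8.95% and 0.222% of all gene-named regions passed. Changes given from here on are relative to the other gene-named regions.

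The 7 regions that rose lay on chromosomes 1, 2, 7 and 11, with folds from 1.83 to 4.02 and a median log2 change of 1.38. The region with the smallest adjusted p among them belonged to Cdkn1c, an imprinted gene read from the maternal copy that encodes an inhibitor of cyclin-dependent kinases and so a brake on cell division. It spanned 2775 bp at chr7:143458487-143461261 (GRCm38). Its CPM were 47.5, 32.68 and 30.61 at P14, against 19.08, 13.47 and 8.989 at P1. The 3 P14 libraries were all above the P1 libraries, by 2.73-fold in the fit (log2 change 1.45, SE 0.29, adjusted p = 0.01837 in edgeR). This was the 1 distal region that DESeq2 called over all regions (log2 change 2.13, adjusted p = 0.01876).

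Slc38a10, a member of the amino acid transporter family, had the largest log2 change of the 7, in 1 of its 17 distal regions. Over its 16 tested regions the median was 0.17, with 11 positive and 5 negative, and 1 passed. The region that passed, of 836 bp, held 10.44, 11.42 and 10.02 CPM at P14, against 3.815, 2.695 and 1.383 at P1. The P14 libraries were close together while the P1 libraries varied about their low level (log2 change 2.01, SE 0.52, adjusted p = 0.04079 in edgeR).

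A region on chromosome 7 and one on chromosome 2 rose as well. The region shared by Shank2 and Gm14372 held 17.4, 14.96 and 15.58 CPM at P14, against 7.631, 4.716 and 6.223 at P1, a log2 change of 1.38. The region shared by Hrh3, which encodes the histamine H3 receptor, and Gm17180 held 54.66, 35.44 and 34.5 CPM at P14, against 19.84, 24.25 and 14.52 at P1, a log2 change of 1.11. In both, P14 replicate 1 was the highest library.

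The widest region that rose also had the highest CPM of the 7. The 4343 bp region of Aatk, a tyrosine kinase gene named for its link to apoptosis that also hosts Mir338, held 124.5, 74.03 and 72.34 CPM at P14, against 46.55, 55.24 and 47.71 at P1. Its change of 0.87 on the log2 scale (SE 0.23) was the smallest among the regions that passed. Aatk had 12 distal regions, and of the 10 tested 1 passed, 6 were positive and 4 negative, with a median of 0.16. A730013G03Rik on chromosome 1 also rose, with 27.64, 26.38 and 15.58 CPM at P14, against 8.394, 12.13 and 8.298 at P1. Among the 10 distal regions ranked first by p among those above P1, 3 did not pass, at Clec3b (log2 change 1.73, adjusted p = 0.05249), the pair Abhd16b and Tpd52l2 (0.82, adjusted p = 0.06994) and Ccdc13 (1.55, adjusted p = 0.1047, all in edgeR).

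The 24 regions that fell lay on 11 chromosomes, with folds from 3.05 to 6.69 and a median log2 change of -2.0. Their median width was 819.5 bp, and they held a median of 10.5 reads at P14 and 22.8 at P1, against 39.7 at P14 and 17.3 at P1 in the 1776 tested distal regions that did not pass. P1 replicate 1 was the highest of the P1 libraries in 22 of the 24, against 38.6% of those 1776. Among the 1776, P1 replicate 1 was also the highest in 88% of the regions with log2 changes over -0.7 to -0.5. Leaving it out, 3 of the 24 still passed, with log2 changes of -2.34 to -1.15 over the 24. Its part in these changes was otherwise not tested.

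Single regions of Cbx5, Pds5b and Hmgb1 fell. The region of Cbx5, encoding a heterochromatin protein that binds methylated histone tails, held 4.299, 6.694 and 11.69 CPM at P14, against 33.58, 16.84 and 26.97 at P1 (log2 change -1.88, SE 0.37, adjusted p = 0.0175 in edgeR). That of Pds5b, a regulator of the cohesin ring, held 0.6142, 3.544 and 3.339 CPM at P14, against 22.13, 9.432 and 13.14 at P1, and its change of -2.74 shared the lowest value with a region of Dnahc11. Hmgb1, an abundant chromatin protein, had 1.843, 4.725 and 2.782 CPM at P14, against 12.97, 14.82 and 8.989 at P1, and here P1 replicate 2 was the highest. In each of the 3 genes all P14 libraries were below all P1 libraries. At Pds5b and Hmgb1, low in every P14 library, the filter on low counts fixed this in advance. Pds5b and Hmgb1 lie in the same window of chromosome 5 as Fry (log2 change -1.61) and Stard13 (-2.1), a cell-shape gene and a GTPase-activating protein gene. At Fry 1 of 27 distal regions fell, and at Stard13 1 of 10.

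Single regions of Erg, Foxk2, Zfp131 and Ccnl2 also fell. Erg, an ETS transcription factor of endothelial cells, had 4.504, 12.6 and 14.47 CPM at P14, against 32.81, 28.97 and 30.42 at P1 in 1 of its 23 distal regions (log2 change -1.66, SE 0.34, adjusted p = 0.0189 in edgeR). The 3 P1 libraries were close together and all above the P14 libraries. Foxk2, a forkhead factor, changed by -2.19 and Zfp131, a zinc finger gene, by -1.98. Ccnl2, a cyclin linked to splicing, held 0.8189, 5.513 and 2.782 CPM at P14, against 31.29, 10.11 and 12.45 at P1 (log2 change -2.67).

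Other genes with a region that fell were varied in function. Nadk, which makes NADP from NAD, changed by -1.9, Far2, a fatty acyl-CoA reductase, by -1.94, and Mrps30, a protein of the mitochondrial ribosome, by -1.68. Ccl28, a chemokine of mucosal tissues, held 3.89, 6.301 and 5.008 CPM at P14, against 29.76, 12.13 and 16.6 at P1 (log2 change -1.96). Dnahc11, an axonemal dynein, Rapgef5, an activator of Rap GTPases, Pard3, a cell polarity gene, and D9Ertd402e each held 2 regions that fell, and these were the only 4 genes with more than 1. Single regions of Ccdc91 (-2.08), Ccdc57 (-2.34) and Nap1l4 (-1.94) completed the 24.

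**Figure D3:**
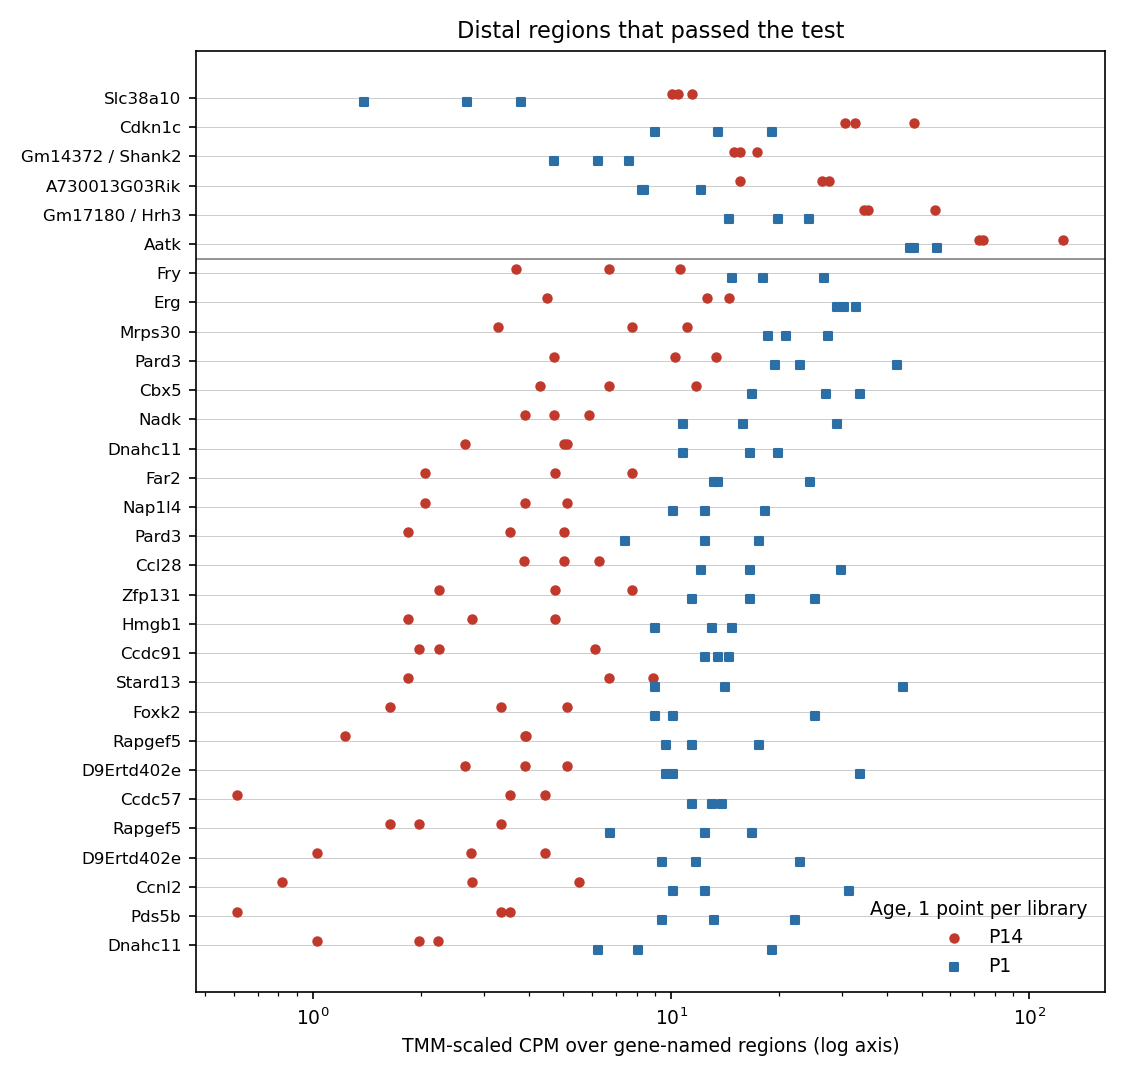
TMM-scaled CPM on a log axis (x axis) for the distal regions that passed (y axis, by gene), without 1 of the 7 that rose. Each point is a library, P14 as red circles and P1 as blue squares. Regions above the line were higher at P14 and the 24 below it lower. P14 and P1 points do not overlap in any row.

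The log2 changes of the distal regions formed a broad main group and a separate low one. Of the 1807 tested, 1759 had a log2 change above -0.7, 2 lay between -1 and -0.7, and 46 (2.55%) lay at or below -1. Elsewhere the same gap was present, with 131 of 59348 between -1 and -0.7 and 2432 (4.1%) at or below -1. These limits were chosen after the values were seen, so the counts are a description.

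In the low group of 46, the median region held 10.42, 17.73 and 12.61 reads per kb at P14, against 35.15, 21.83 and 22.94 at P1. In the 1759 of the main group the values were 66.86, 32.94 and 23.13 at P14, against 16.42, 18.59 and 18.65 at P1. Regions without a gene name, pooled, held 7.04, 7.44 and 6.15 reads per kb at P14, against 7.26, 6.8 and 7.06 at P1. So the low group was nearest to the unnamed DNA in P14 replicate 1, the library in which the main group was densest. P1 replicate 1 was the highest P1 library in 39 of the 46 (84.8%), against 38% of the 1759. Within the 1759 this held for 22 of the 25 regions with log2 changes over -0.7 to -0.5 (88%). Elsewhere it held for 74.4% of regions at or below -1 and for 77.9% of those over -0.7 to -0.5. It was therefore not particular to the low group or to the ends. The part of P1 replicate 1 in the low group was not tested.

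**Figure D4:**
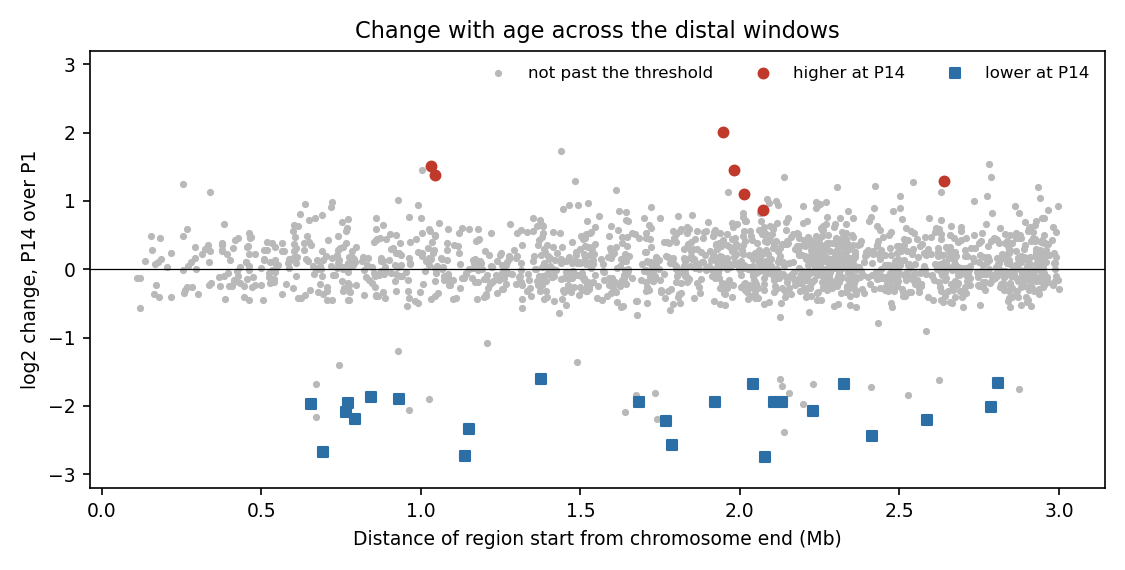
log2 change, P14 over P1 (y axis), of the 1807 tested distal regions against the distance of the region's start from the chromosome end in Mb (x axis). Red circles were higher and blue squares lower at P14 in the test. Most regions lie within 0.7 of 0, and a separate band of 46 lies at or below -1.

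Median changes were similar along the window, while the number of regions was not. In 0.5 Mb steps from the end the windows held 95, 235, 266, 368, 600 and 477 regions, so the last step before the end was the emptiest. Median log2 changes in these steps ran from 0.01 to 0.08. None of the 83 tested regions nearest the end passed, where 2.41% of all tested regions did, and between 0.5 and 1 Mb 7 of 206 (3.4%) were lower, where 2.21% of all tested regions were. The most distal region of each of 18 chromosomes, of which 14 were tested, had log2 changes of -1.84 to 1.25 and none passed. Just inside the 3 Mb limit 15 tested regions had a median log2 change of 0.17, and just outside it 17 had -0.14.

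The denser and the sparser ends are given apart. At the 9 denser ends 13 of 1555 tested regions (0.836%) were lower at P14, against 1.93% in the remainder of those chromosomes. At the 10 sparser ends 11 of 252 (4.37%) were lower, against 2.65%. Higher at P14 were 6 (0.386%) at the denser and 1 (0.397%) at the sparser ends, so these shares were close. Neither split was tested. Among 16 ends with at least 20 tested regions the median log2 change was above that of the remainder on 10 and below it on 6.

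The imprinted domain of chromosome 7 was covered by many regions. Of 18 genes listed for it, 13 had a distal region, with 76 regions in all and 59 tested. Of these, 1 rose (Cdkn1c, given above) and 1 fell (Nap1l4), where 2.41% of all tested regions passed. The median log2 change was 0.15, with 39 positive and 20 negative, beside 0.05 over all distal regions and 0.0 over all gene-named ones. Relative to regions without a gene name the median was 1.13.

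Nap1l4, a nucleosome assembly gene at the edge of the domain, held 2.047, 5.119 and 3.895 CPM at P14, against 18.31, 10.11 and 12.45 at P1 in 1 of 2 regions (log2 change -1.94, SE 0.48, adjusted p = 0.03329 in edgeR). The P14 values were low throughout and did not overlap with P1, which the filter on low counts fixed for a region this low at P14. Its other region held 6.551, 10.24 and 11.13 CPM at P14, against 22.13, 7.411 and 8.298 at P1, and there the groups overlapped.

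Igf2, the paternally expressed fetal growth factor, had 3 tested regions with log2 changes of 1.35, 1.07 and 0.66, none of which passed (adjusted p = 0.2091, 0.1314 and 0.7439 in edgeR). The first held 12.28, 8.27 and 13.91 CPM at P14, against 3.815, 7.411 and 2.074 at P1, without overlap between the ages. The second, shared with Igf2as, held 24.98, 20.87 and 13.91 CPM at P14, against 12.97, 10.78 and 5.532 at P1, again without overlap.

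H19, the maternally expressed non-coding RNA that shares control elements with Igf2, had 2 regions assigned to it, whose values went opposite ways. The first below overlapped the gene, and the second lay outside its span. That at chr7:142576183-142578687 held 35.01, 22.05 and 30.05 CPM at P14, against 20.6, 20.88 and 19.36 at P1 (log2 change 0.53, adjusted p = 0.6685 in edgeR). That at chr7:142579667-142581537 held 24.57, 27.57 and 26.71 CPM at P14, against 41.97, 33.01 and 26.97 at P1 (log2 change -0.37, adjusted p = 0.9732 in edgeR). In the first the P14 libraries lay above those of P1, in the second the ages overlapped, and neither difference passed.

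Kcnq1 had 18 tested regions among its 31, with log2 changes of -0.18 to 1.01, a median of 0.28 and 16 positive values, none past the threshold. Its regions below the filter are outside that range and went both ways. That at chr7:143367840-143368540 held 10, 10 and 5 reads at P14, against 47, 9 and 15 at P1. Without P1 replicate 1 its log2 change was -1.51, and that of chr7:143325966-143326671 was 1.23. The tested region over the Kcnq1ot1 start, whose upstream sequence is printed above, held 44.43, 35.05 and 28.94 CPM at P14, against 28.23, 30.32 and 24.2 at P1. P14 replicate 3 lay within the P1 range (log2 change 0.41, adjusted p = 0.8926 in edgeR). Methylation of this element differs between parental copies in the mouse, which the counts do not resolve.

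**Figure D5:**
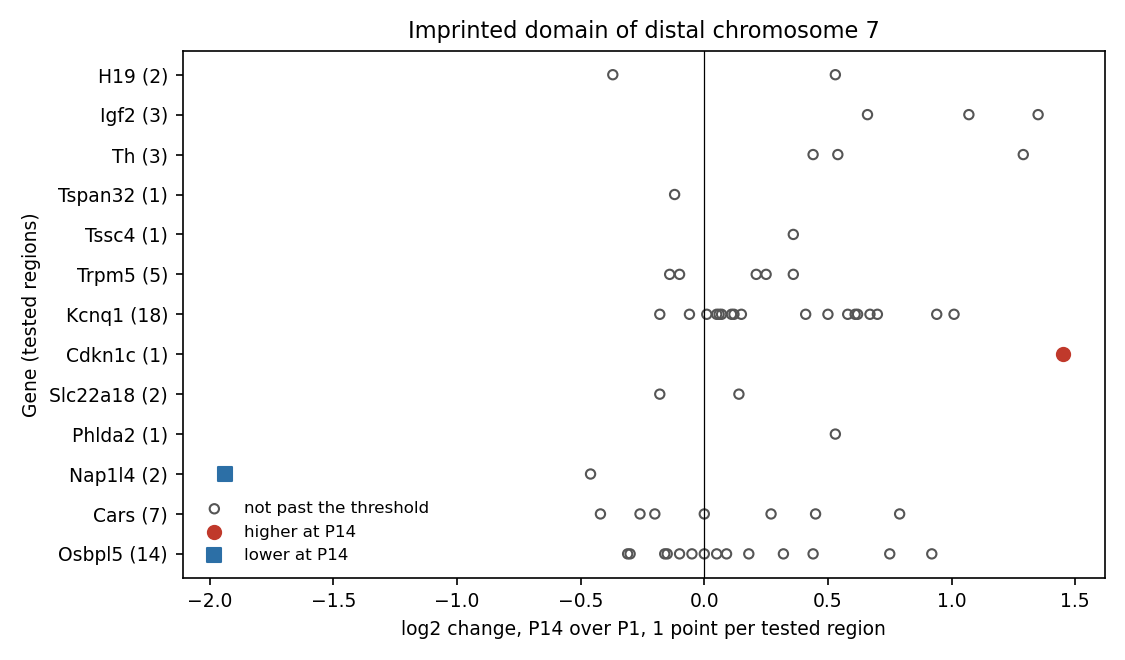
log2 change, P14 over P1 (x axis), of the 59 tested regions of the imprinted domain, by gene (y axis, number of tested regions in brackets), with a region shared by listed genes drawn at each. Cdkn1c at 1.45 is the region that rose and Nap1l4 at -1.94 the one that fell, and 16 of the 18 Kcnq1 regions lie above 0.

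Of 71 tested distal regions over a promoter window, 0 passed in either direction in edgeR, where 2.41% of all tested regions did. Their median log2 change was 0.152 with 49 positive (69.0%), against 0.051 and 56.9% at 1499 promoter regions elsewhere, of which 7 were higher and 18 lower. The Th region, over the CpG-rich upstream sequence printed above, held 17.2, 6.301 and 12.24 CPM at P14, against 6.868, 4.716 and 3.457 at P1, with overlap between the ages (log2 change 1.29, adjusted p = 0.2334 in edgeR). That over the CpG-poor Abhd16b sequence held 75.54, 60.64 and 45.63 CPM at P14, against 33.58, 40.42 and 30.42 at P1, without overlap. At Krt7 the values were 22.52, 9.057 and 13.91 CPM at P14, against 13.74, 12.13 and 6.915 at P1, and P14 replicate 2 lay below 2 of the P1 libraries.

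No distal region of the listed heart genes passed. Of 20 listed genes of heart muscle, contraction and conduction, 13 had distal regions, and of 143 tested 0 passed in edgeR, where 2.41% of all tested regions did (95 positive and 48 negative, median log2 change 0.12). A region of Nnt, the mitochondrial transhydrogenase, was among the 2 of smallest p. It held 1.433, 3.544 and 2.782 CPM at P14, against 11.45, 8.084 and 8.298 at P1 (log2 change -1.9, adjusted p = 0.09319 in edgeR). Its P14 libraries all lay below those of P1, which the filter on low counts fixed for a region this low at P14. The region lies in the low group described above. Of the 4 tested regions of Nnt, 3 had a positive change.

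Growth factor, Wnt and receptor signalling had the highest list median. Of 94 tested regions at 15 genes none passed, where 2.41% of all tested regions did. Of the 94, 70 were positive and 24 negative, and the median log2 change was 0.21 in a range of -0.44 to 1.35. The list includes Igf2. Developmental transcription factors had 119 tested regions at 15 genes, with a median of 0.08. Of these, 2 fell (Erg and Foxk2) and none rose, where 2.21% of all tested regions were lower and 0.2% higher. Prdm16, in this list and in the heart list, had 47 tested regions with changes of -0.51 to 1.35.

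The counts of the remaining lists stand beside 0.2% higher and 2.21% lower among all tested regions. Ion channel and synaptic genes had 160 tested regions, of which 2 rose (1 of them at Shank2) and none fell, and a median of 0.03. In metabolism 1 of 46 fell (Far2), with a median of 0.07. In cell cycle and DNA replication 1 of 23 rose (Cdkn1c) and 2 fell (Hmgb1 and Pds5b), with a median of -0.06. Against regions without a gene name the medians of all 8 lists were positive, from 0.89 for the cell cycle list to 1.17 for the signalling list.

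Of 21 listed markers of blood and immune cells 8 are named in the table, and all 8 had a distal region, 9 regions in all, and 0 of 6 tested passed in edgeR, with log2 changes of -0.12 to 0.48. Nfe2, an erythroid transcription factor, held 15.15, 14.96 and 13.91 CPM at P14, against 9.92, 12.13 and 13.14 at P1. Xcr1, a chemokine receptor of dendritic cells, held 7.165, 6.301 and 9.46 CPM at P14, against 3.052, 7.411 and 5.532 at P1.

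None of the densest or least dense distal regions passed the test. The densest were at Lars2, a mitochondrial leucyl-tRNA synthetase, with a mean of 104.2 reads per kb over the 6 libraries, Fscn2 with 72.88, and Uts2r, the urotensin receptor, with 67.55. Lars2 held 38.08, 42.53 and 42.85 CPM at P14, against 57.99, 36.38 and 40.11 at P1, with overlap. Fscn2 held 90.69, 62.22 and 51.75 CPM at P14, against 56.47, 39.75 and 40.11 at P1, also with overlap, as at Uts2r with 70.83, 38.2 and 37.28 CPM at P14, against 50.36, 47.16 and 29.73 at P1. The least dense were at Sectm1a (6.01 reads per kb), Gm5096 (7.646) and Itgbl1 (7.872). The 6 regions had log2 changes of -1.07 at Itgbl1 to 0.61 at Fscn2, and the sign at Lars2 (-0.12) and Sectm1a (-0.02) turned positive when scaled to regions without a gene name.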

How the data were processed

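Per the submitters' processing notes, BWA, MACS, bedtools and edgeR 3.2.4 were used with GRCm38 (mm10). Their roles, the pooling of libraries and duplicate handling are not stated there. The deposited table holds raw read counts without any scaling. Its 221524 lines hold 213957 distinct regions, and 7567 repeat a region. The smallest mean count of a region was 10.0.

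Counts were tested with edgeR 4.0.16 in R 4.3.3 (quasi-likelihood, TMM, default filter, age only, Benjamini-Hochberg at 0.05) over gene-named regions and over all regions. DESeq2 1.42.0, other scalings, windows and left-out libraries were alternatives. In simulated counts over 61355 gene-named regions, 17 of 100 changes of 2-fold and 79 of 100 of 4-fold were recovered, with 3 false calls. These counts were drawn around 1 mean per region scaled to library size. A single library that departs from its group, as P14 replicate 1 did, was not simulated, so the false calls do not cover that case.

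Library values were compared by exact permutation. Each p-value weighs a difference against the variation between these libraries.

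Members and gene lists were chosen with earlier results of these data known. Regions were named as the 10 smallest p in each direction, all that passed, the 2 smallest p per list, the 3 densest and 3 least dense, and the edges of each window. H19, the second Nap1l4 region, the third Igf2 region and the promoter regions were added after their values were seen. Gene spans and sequences come from RefSeq GRCm38.p6, the files' build. Coordinates count from 1. Some regions that the rule names are not reported here.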

Additional observations from a re-analysis of the deposited data

How the results depend on the processing

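Of the 31 distal regions past the threshold (7 higher and 24 lower at P14), DESeq2 gave 3 higher and 29 lower, and a window of 1 Mb gave 7 in all (0 higher, 7 lower), 2 Mb 18 (4 higher, 14 lower) and 5 Mb 61 (51 lower). Scaling to regions without a gene name gave 211 (209 higher, 2 lower), of which 7 higher and 2 lower were among the 31. Leaving out 1 library gave between 0 and 24 in all, 0 to 5 higher and 0 to 20 lower: 0 without P14 replicate 1, 17 without P14 replicate 2, 8 without P1 replicate 1 (4 higher and 4 lower) and 17 without P1 replicate 3, with none higher. Of the 8 without P1 replicate 1, 3 higher and 3 lower were among the 31. Without P1 replicate 2, 2 were higher and 20 lower, of which 0 and 17 were among the 31. The fit over all regions went from 0 to 1 with DESeq2 and to 13 without P14 replicate 1, where 0.122% of all regions were higher and 0.847% lower. The mean log2 density ratio of distal to remaining regions over all 6 libraries, -0.016 at 3 Mb, turned positive at 2 Mb (0.006) and 5 Mb (0.015). The cause of these shifts was not tested. With the replicate number as a block, 0 distal regions passed. Deviations of samples with the same number had correlations of -0.028, -0.044 and 0.043, and with different numbers -0.036 to 0.067. At 15 to 59 reads per library in the median distal region, such values cannot decide whether the numbers pair the samples.

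Signs turned at regions that had not passed: Gm5096 (-0.16 without P1 replicate 1, in a range of -0.16 to 0.53 over left-out libraries), Lars2 (0.82 scaled to regions without a gene name, 0.59 over all regions, -0.26 to 0.11 over left-out libraries, the upper value without P1 replicate 1), Sectm1a (0.92 scaled to regions without a gene name, 0.7 over all regions, -0.13 to 0.14 over left-out libraries, with 0.03, 0.05 and 0.14 without P14 replicate 1, P14 replicate 3 and P1 replicate 1) and Uts2r (-0.16 without P14 replicate 1, in a range of -0.16 to 0.41). Depth limits single regions, since the median distal region held 15 to 59 reads per library.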
